A study of Capra hircus with 14 samples.

Results

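The end of an 8-day induction was compared with its start in goat (Capra hircus) cells, over 4 of the 14 RNA sequencing libraries of a time course. The members are all 30277 genes of the expression table, of which 15712 had enough counts to be tested, and weight is given to transcription factors, receptors, ligands with their secreted antagonists, and enzymes. The 2 day 0 libraries are from cells labelled GEF, wild-type fibroblasts grown in DMEM plus fetal bovine serum and antibiotics. The 2 day 8 libraries are from the same kind of cells after 8 days on Matrigel-coated plastic in R induction medium, which was changed at 2-day intervals. The labels used here do not give its composition. The series title names mammary epithelial cells as the target of the conversion, and the labels describe the day 8 cultures as induced cells with primary colonies, without the share of cells in them. No untreated day 8 library was analysed here, so the medium, the Matrigel coating named for day 8 only, and the time in culture cannot be told apart. The labels do not say whether the replicates were separate cultures, and p-values then measure the spread between libraries, which may be technical. In bulk RNA, fewer cells of a type and less RNA per cell cannot be told apart either.

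Transcription factors bind DNA and set which genes a cell transcribes, and a change of cell type is usually accompanied by the loss of some lineage factors and the gain of others. Receptors, with the ligands that bind them, fix which signals from serum, matrix and neighbouring cells a cell can answer. In the mammary gland, FGF, WNT, EGF and TGF-beta family signals pass between stroma and epithelium, while prolactin and steroid hormones act on luminal cells. Enzymes carry the cell's metabolism, and their set differs between connective tissue cells, which build and turn over matrix, and epithelia, which form a barrier.

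Totals of the 4 libraries were 22397826 and 22124219 estimated counts at day 0 and 21585464 and 23883209 at day 8. Spearman correlations over genes were 0.995 within day 0, 0.997 within day 8 and 0.898 to 0.905 between the days. The day 0 pair differed from each other more than the day 8 pair did, the chi-square over its degrees of freedom being 8.12 against 2.18, and the standard errors below share 1 spread over all 7 days. Over all genes tested, 35% were called lower at day 8 and 36% higher, as given below. Of the marker genes of fibroblasts, 15 of 17 tested were lower at day 8 and 2 higher. Their summed level went from 34679 to 35192 CPM (counts scaled to library size) at day 0 to 19197 to 19515 CPM at day 8. Markers of basal or myoepithelial mammary cells were higher in 8 of 9 cases, against 36% over all genes tested, and their sum rose from 9432 to 10301 CPM to 48565 to 49522 CPM, so the cells labelled fibroblasts already held such transcripts at day 0. Most of the day 8 sum was KRT5, at 25073 and 25664 CPM, and KRT14, at 14384 and 14659 CPM. OXTR, also listed, had too few counts to be tested. Whether the list is particular to mammary cells, among basal epithelial or contractile cells, was not tested. Luminal markers split, with 7 higher and 3 lower of 11, and their sum went from 2417 to 2601 CPM to 1339 to 1355 CPM. That fall rests on KRT8, the most abundant of them, which fell from 1987 and 1834 CPM to 169 and 170.2 CPM. Without KRT8, a sum chosen after seeing the data, the luminal markers summed to 584 to 613 CPM at day 0 and to 1170 to 1185 CPM at day 8, with KRT7 at a log2 fold change of 2.06 ± 0.0581 and KRT19 at 1.11 ± 0.0499. KRT8 was not alone in its fall. KRT18 fell from 166 and 150.3 CPM to 1.42 and 1.72 CPM, a log2 fold change of -6.64 ± 0.0998, and CLDN4 fell by -1.84 ± 0.104. Of 10 milk genes, 7 had 0 counts in the 4 libraries, among them 3 casein genes and LALBA. Markers of differentiated epidermis were higher in 10 of 12 cases, and their sum rose from 38.8 to 39.2 CPM to 1049.5 to 1093 CPM.

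Of the 15712 genes tested, 5651 (36%) were called higher and 5496 (35%) lower at day 8, together 70.9%, by edgeR's quasi-likelihood test at an adjusted p under 0.05. Since the common coefficient of variation was as small as 0.045, many called changes are small, and counts are also given for genes that were called and changed at least 2-fold, 2530 higher (16.1%) and 2000 lower (12.7%) over all genes tested. Where no fold is named, a count of members higher or lower is of calls of any size. The median log2 fold change over all genes was 0.02 and the median absolute log2 fold change was 0.57. Among 433 tested transcription factors, 95 were at least 2-fold higher and 86 at least 2-fold lower (21.9% and 19.9%). Among 301 receptors, 97 were at least 2-fold higher and 75 at least 2-fold lower (32.2% and 24.9%). Among 214 ligands and antagonists the 2-fold counts were 67 and 65 (31.3% and 30.4%), and among 1301 enzymes 303 and 222 (23.3% and 17.1%). The median absolute log2 fold change was 1.59 for ligands, 1.25 for receptors, 0.83 for transcription factors and 0.77 for enzymes. A further 217 transcription factors, 217 receptors, 132 ligands and 363 enzymes of the table had too few counts to be tested. Log2 fold changes are day 8 minus day 0. The ± SE is the fitted change divided by the square root of the test's F statistic, in the model of the 14 libraries. Where a gene has few counts on 1 day, this SE may be too small. It was 0.238 for ITGA7 and 0.127 for VGF, against 0.661 and 0.287 by DESeq2, another fit of the same libraries.

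**Figure D1:**
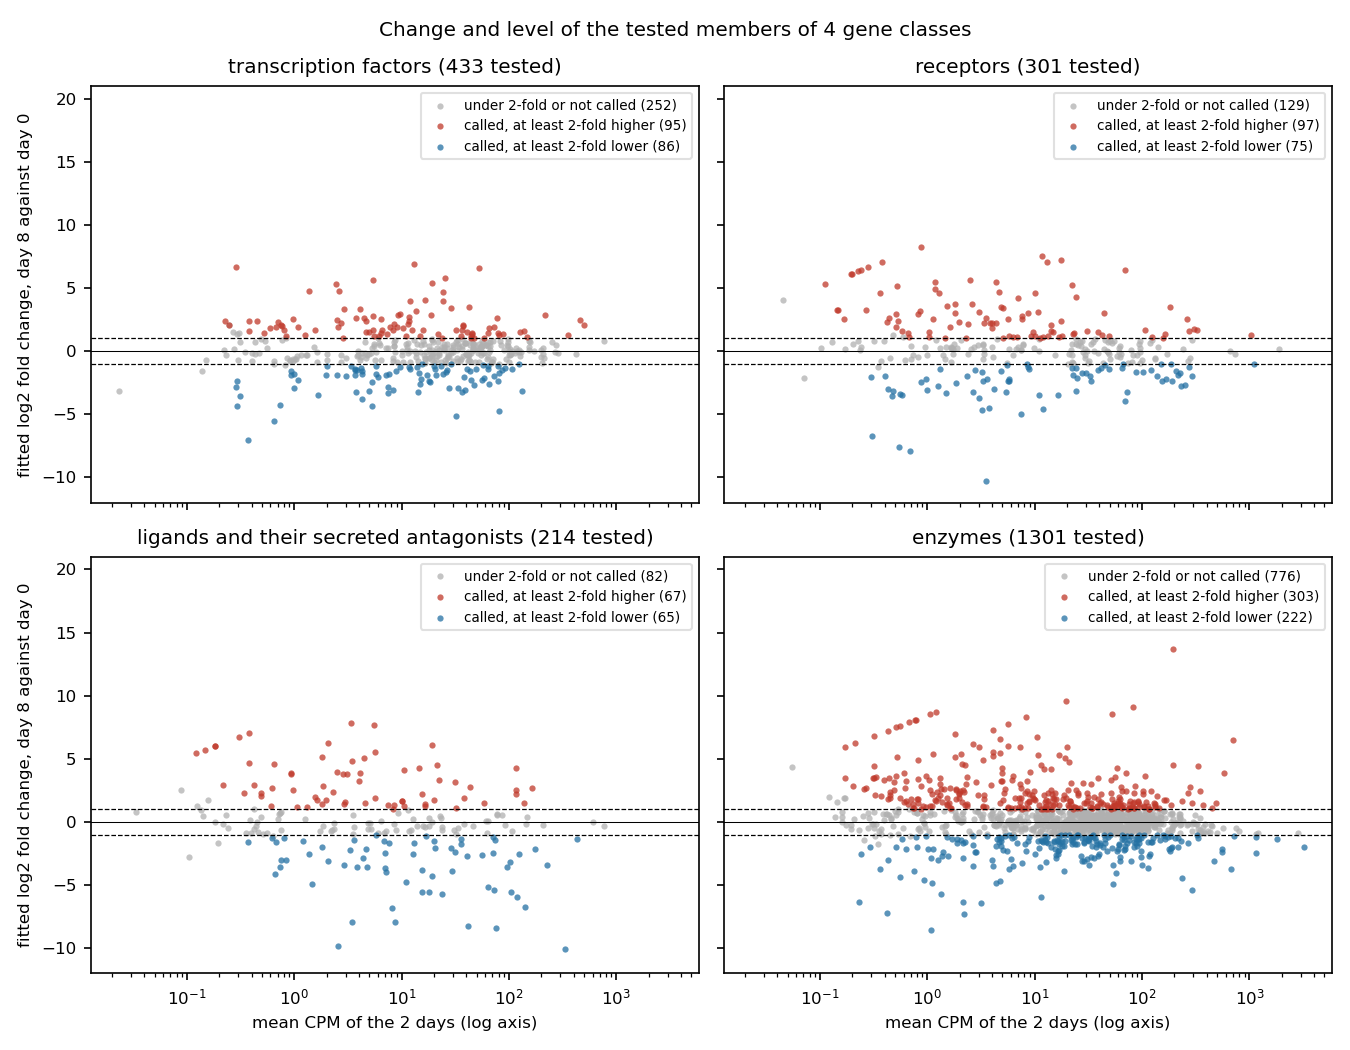
Fitted log2 fold change of day 8 against day 0 (vertical axis) against the mean CPM of the 2 days (log axis) for each tested member of the 4 classes, 1 point a gene, with dashed lines at a 2-fold change. Red points (95, 97, 67 and 303) were called and at least 2-fold higher and blue points (86, 75, 65 and 222) at least 2-fold lower, and the fitted values of genes with 0 counts on 1 day depend on the prior count.

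Several of the transcription factors with the largest rises are known from epithelia. FOXQ1, a forkhead factor, went from 0.0937 and 0.325 CPM to 25.4 and 26.1 CPM, a log2 fold change of 6.90 ± 0.296 (adjusted p = 3.49e-16), or 8.04 without day 0 replicate 2. TFCP2L1, a CP2-type factor of epithelia such as the kidney collecting duct, stood at 1.08 and 1.07 CPM at day 0 and 106 and 105 CPM at day 8. Both day 8 libraries lay far above both day 0 libraries, with a log2 fold change of 6.61 ± 0.121 (adjusted p = 1.7e-23). BARX2, a homeobox factor, rose from 0.937 and 0.881 CPM to 50.1 and 48.8 CPM, a log2 fold change of 5.76 ± 0.174 (adjusted p = 3.29e-19). ZNF750, which acts with p63 in keratinocyte differentiation in human skin, rose from 0.843 and 0.881 CPM to 39.5 and 35.6 CPM, a log2 fold change of 5.43 ± 0.152 (adjusted p = 6.34e-20). The gene lies across part of TBCD in the RefSeq table, and TBCD itself fell by 0.45 on the log2 scale.

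Grainyhead and CP2 factors, which open and activate epithelial barrier genes, numbered 6 tested, of which 5 were called higher, 4 of them at least 2-fold, and 0 lower, for a median log2 fold change of 2.95 against 0.02 over all genes. GRHL1 rose from 1.83 and 1.99 CPM to 30.8 and 31.1 CPM, a log2 fold change of 4.01 ± 0.152 (adjusted p = 2.65e-17). GRHL3, required for the skin barrier in mice, rose by a log2 fold change of 3.99 ± 0.153 and GRHL2 by 1.91 ± 0.14. TP63, the master factor of basal epithelium, was already present at day 0 and stood at 50.1 and 55.6 CPM at day 0 and 386 and 378 CPM at day 8, with a log2 fold change of 2.85 ± 0.0564 (adjusted p = 7.43e-23). Of the AP-2 factors, TFAP2C rose by a log2 fold change of 3.49 ± 0.114 and TFAP2A by 1.51 ± 0.0775, while TFAP2B went from 42.2 ± 1.45 CPM to 41.2 ± 0.368 CPM (SD, n = 2), a change that was not called (adjusted p = 0.702). The ETS factor ELF5, needed for the secretory lineage of the mouse mammary gland, rose from 0.328 and 0.0464 CPM to 5.08 and 5.04 CPM, a log2 fold change of 4.72 ± 0.43 (adjusted p = 7.14e-10), or 6.60 without day 0 replicate 1, and rests on 8 counts at day 0. EHF, an ETS factor of epithelia, rose by a log2 fold change of 2.62 ± 0.0762.

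The nuclear receptors, transcription factors switched by hormones and lipids, had 8 of 33 tested members at least 2-fold higher and 5 lower. These are 24.2% and 15.2%, against 21.9% and 19.9% over all transcription factors tested. PPARA, which drives fatty acid oxidation genes, rose from 22.2 ± 0.272 CPM to 49.9 ± 0.394 CPM (SD, n = 2), a log2 fold change of 1.17 ± 0.0746, PPARD by 0.83 ± 0.0661 and the vitamin D receptor VDR by 0.92 ± 0.0867. In the other direction NR3C1, the glucocorticoid receptor, fell from 88.7 ± 14.7 CPM to 39.9 ± 1.43 CPM, a log2 fold change of -1.15 ± 0.0831. The retinoic acid receptors divided, with RARA at -1.45 ± 0.0861 and RARG at -0.99 ± 0.0628 and RARB at 1.92 ± 0.249, and the immediate early receptor NR4A2 fell most, with a log2 fold change of -2.26 ± 0.0711. ESR1, the estrogen receptor, had 0.469 and 0.557 CPM at day 0 and 0.19 and 0.387 CPM at day 8 and was not called (adjusted p = 0.251).

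Among the falling factors were several that respond to growth factors. MAFF, a small MAF protein induced by serum and stress, fell from 66.8 and 58.5 CPM to 1.71 and 1.81 CPM, a log2 fold change of -5.15 ± 0.142 (adjusted p = 4.64e-20). ETV4, an ETS factor whose transcription follows FGF and ERK signalling, fell from 169 and 142 CPM to 5.6 and 5.73 CPM, a log2 fold change of -4.78 ± 0.112 (adjusted p = 1.97e-21). Its relatives ETV5 and ETV1 fell, with a log2 fold change of -2.82 ± 0.171 and -2.29 ± 0.0837 and ELK3 fell from 225 and 253 CPM to 27 and 26.2 CPM, a log2 fold change of -3.17 ± 0.068 (adjusted p = 3.64e-22). Of 21 ETS factors tested, 8 were at least 2-fold lower and 5 at least 2-fold higher. PAX8 fell, with a log2 fold change of -4.34 ± 0.283, KLF15 at -3.82 ± 0.284, or -4.57 without day 8 replicate 2, KLF2 at -3.35 ± 0.221, the Notch effector HEY1 at -3.28 ± 0.144, GLIS3 at -3.24 ± 0.105 and BHLHE22 at -3.23 ± 0.285. The 3 EGR factors tested, which are early responders to growth factors, were all called lower, EGR1 at a log2 fold change of -2.72 ± 0.0829. NF-kB and NFAT factors, which relay inflammatory and calcium signals, numbered 10 tested, of which 7 fell, 5 of them at least 2-fold, and 2 rose, both at least 2-fold. Among those lower were RELB at a log2 fold change of -1.88 ± 0.105, NFKB2 at -1.49 ± 0.0714 and RELA at -1.06 ± 0.0659.

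Within AP-1, the dimers of FOS and JUN proteins, FOSL1 and FOSL2 moved in opposite directions. FOSL1 fell from 135 and 129 CPM to 24.8 and 25.8 CPM, a log2 fold change of -2.38 ± 0.0678 (adjusted p = 9.36e-20). FOSL2 stood at 137 and 152 CPM at day 0 and 787 and 776 CPM at day 8 and rose by a log2 fold change of 2.43 ± 0.0537 (adjusted p = 6.27e-22). JUN rose by 0.48 ± 0.0516, whereas JUNB fell, with a log2 fold change of -0.93 ± 0.0593 and JUND at -1.34 ± 0.0969. Among the C/EBP factors, CEBPA, which acts in differentiating epidermis and fat, rose from 4.85 ± 0.0318 CPM to 52.5 ± 1.05 CPM (SD, n = 2), a log2 fold change of 3.44 ± 0.121, and CEBPB fell, with a log2 fold change of -1.77 ± 0.126. The hypoxia-regulated factor EPAS1, also called HIF2A, stood at 177 and 201 CPM at day 0 and 823 and 781 CPM at day 8 and rose by a log2 fold change of 2.09 ± 0.0553 (adjusted p = 2.39e-20). HIF1A rose by a log2 fold change of 1.30 ± 0.0536 and the aryl hydrocarbon receptor AHR by 1.82 ± 0.0744.

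The NFI factors were called higher in 4 of 4 cases, 2 of them at least 2-fold, NFIA by a log2 fold change of 1.69 ± 0.0728 and NFIB by 1.44 ± 0.0637. Of the MEF2, SRF and myocardin-related group, which controls contractile genes, 6 of 8 were called higher and 1 lower, 4 and 0 of them at least 2-fold, with MEF2C at a log2 fold change of 2.80 ± 0.2 and MEF2A at 1.91 ± 0.0678. Among TEAD factors, which carry YAP to DNA, TEAD1 rose by 1.55 ± 0.0888 while TEAD2 fell, with a log2 fold change of -2.05 ± 0.0844, and TEAD3 and TEAD4 were also lower. The inhibitory SMADs SMAD7 and SMAD6 fell, with a log2 fold change of -2.91 ± 0.103 and -1.63 ± 0.0999, and no SMAD was at least 2-fold higher. Over all transcription factors tested, 21.9% were at least 2-fold higher and 19.9% lower. Homeobox factors outside the HOX clusters were even, with 15 at least 2-fold higher and 15 lower of 71 (21.1% each). Those falling included MEOX2 at a log2 fold change of -3.07 ± 0.0913 and PRRX2 at -2.00 ± 0.0776, mesenchymal factors, and the mesenchymal PRRX1 rose by 0.79 ± 0.0461. Only 3 of 37 HOX genes had enough counts to be tested. On a per-length scale (TPM, transcript levels corrected for length), ATF4, a stress factor, was the most abundant factor at both days, at 565 and 500.3 TPM. EPAS1 moved from rank 30 to rank 5 and TP63 from rank 132 to rank 11, and ETV4 fell from rank 14 to rank 277.

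**Figure D2:**
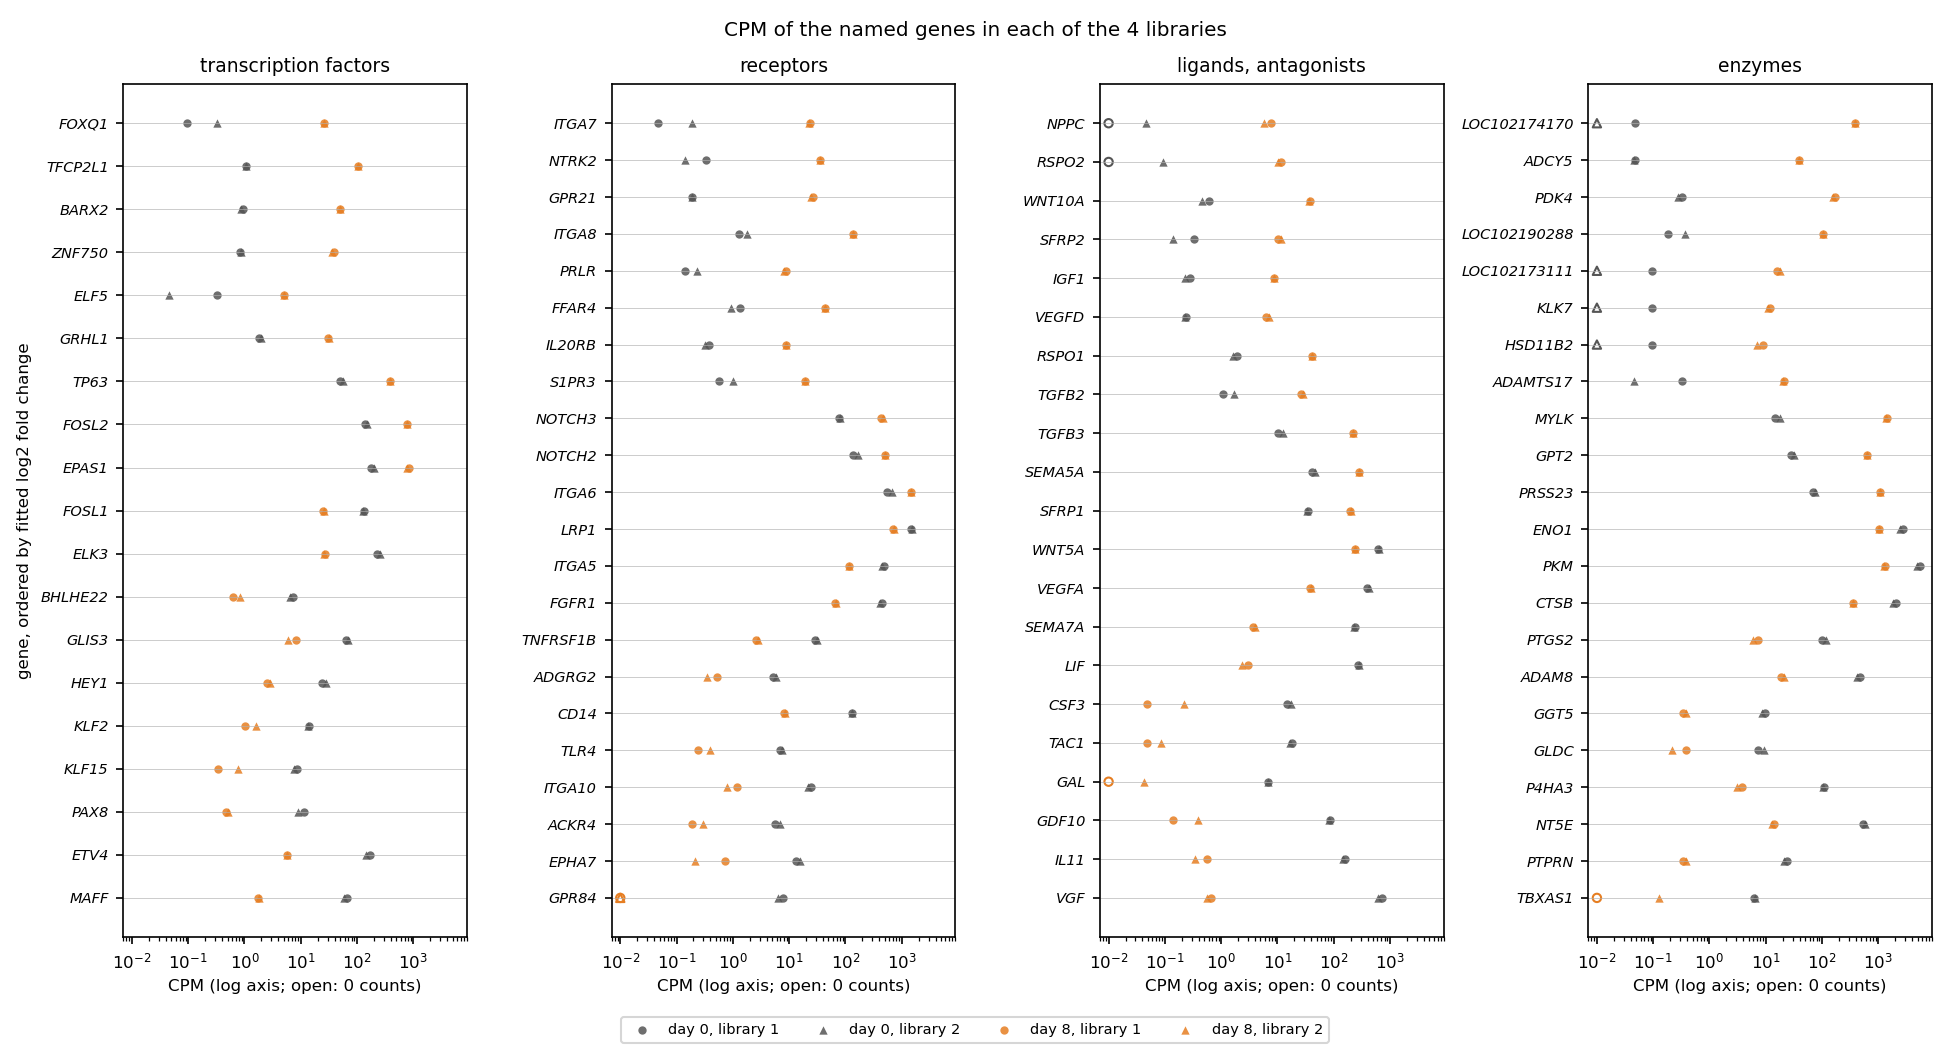
CPM (log axis) of the named genes of each class in the 4 libraries, ordered by fitted log2 fold change, with grey symbols for day 0, orange for day 8, circles for replicate 1 and triangles for replicate 2. For each of the 84 genes plotted both libraries of 1 day lie above both of the other, as their choice from these libraries makes likely, and open symbols at the left edge mark 0 counts.

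The 8 largest rises and falls with at least 5 CPM on the higher day in each class and the genes of largest CPM difference are 86 genes in all, of which 84 are plotted, and the days did not overlap for any of them, as their choice makes likely. Other genes in the text were chosen after their values were seen. Among receptors, the prolactin receptor PRLR, through which prolactin acts on mammary epithelium, stood at 0.141 and 0.232 CPM at day 0 and 8.93 and 8.22 CPM at day 8. It rose by a log2 fold change of 5.48 ± 0.369 (adjusted p = 2.49e-12), from 8 counts in the day 0 libraries together. FFAR4, a receptor for long-chain fatty acids, rose from 1.36 and 0.928 CPM to 42.7 and 43 CPM, a log2 fold change of 5.22 ± 0.171 (adjusted p = 1.42e-18). NTRK2, the receptor of the neurotrophin BDNF, rose from 0.328 and 0.139 CPM to 34.7 and 35.8 CPM, a log2 fold change of 7.21 ± 0.188 (adjusted p = 1.68e-20), or 7.93 without day 0 replicate 1. IL20RB, a subunit of the receptors for IL20-type cytokines in skin, rose from 0.375 and 0.325 CPM to 8.83 and 8.95 CPM, a log2 fold change of 4.65 ± 0.264 (adjusted p = 9.18e-14). S1PR3, a sphingosine 1-phosphate receptor, rose by a log2 fold change of 4.60 ± 0.196. GPR21 rose by a log2 fold change of 7.05 ± 0.214, but it lies within RABGAP1 in the RefSeq table, and without the strand setting their reads may not be told apart. RABGAP1 itself was at 63.1 and 65 CPM at day 0 and at 82 and 77.5 CPM at day 8.

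Integrins, which bind cells to matrix, had 7 of 22 tested members at least 2-fold higher and 6 lower (31.8% and 27.3%). Over all receptors tested the shares were 32.2% and 24.9%. ITGA5, the alpha subunit of the fibronectin receptor, fell from 484 and 446 CPM to 116 and 118 CPM, a log2 fold change of -2.00 ± 0.0532 (adjusted p = 2.58e-20). ITGA6, a laminin-binding subunit of basal epithelial cells, rose from 552 and 667 CPM to 1459 and 1462 CPM, a log2 fold change of 1.26 ± 0.0614 (adjusted p = 4.42e-15). ITGA7, a laminin receptor of muscle, rose from 0.0469 and 0.186 CPM to 23.2 and 22.9 CPM, a log2 fold change of 7.56 ± 0.238 (adjusted p = 6.99e-19), or 8.80 without day 0 replicate 2. The gene overlaps METTL7B in the RefSeq table, which had 0 counts in the 4 libraries. ITGA8 rose from 1.31 and 1.81 CPM to 138 and 139 CPM, a log2 fold change of 6.46 ± 0.0969 (adjusted p = 6.35e-25). These are the largest rises among integrins, whereas ITGA10, a collagen-binding subunit, fell, with a log2 fold change of -4.56 ± 0.19, ITGAV at -1.05 ± 0.0692 and ITGB5 at -1.66 ± 0.0695. ITGB4, the partner of ITGA6 in hemidesmosomes, had 702 and 599 CPM at day 0 and 658 and 658 CPM at day 8, so its days overlapped, and was not called (adjusted p = 0.814). ITGB1 had the highest TPM of all receptors listed on both days, 838 and 991, and ITGA6 moved from rank 6 to rank 2.

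Receptor tyrosine kinases moved in both directions. FGFR1 fell from 442 and 420.3 CPM to 65.2 and 68.1 CPM, a log2 fold change of -2.69 ± 0.0525 (adjusted p = 5.98e-23). On the TPM scale it moved from rank 5 to rank 46 of the receptors. FGFR2, whose epithelial isoform binds FGF7 and FGF10, rose from 9.84 ± 0.0625 CPM to 77.7 ± 2.71 CPM (SD, n = 2), a log2 fold change of 2.98 ± 0.0766 (adjusted p = 1.27e-20). The counts are per gene, so the isoforms of FGFR2 cannot be told apart. PDGFRA and PDGFRB fell, with a log2 fold change of -2.36 ± 0.0678 and -2.25 ± 0.0617, and AXL at -2.38 ± 0.0632. EGFR rose by 1.02 ± 0.0621, ERBB3 by 1.23 ± 0.21 and IGF1R by 1.72 ± 0.0576, while ERBB2 fell by 0.25 on the log2 scale. DDR1, a collagen receptor of epithelia, rose by a log2 fold change of 1.34 ± 0.0606, and DDR2, its counterpart in mesenchyme, went from 97.9 ± 8.97 CPM to 93.6 ± 3.63 CPM (SD, n = 2) and was not called (adjusted p = 0.473). EPHA7 fell from 13.2 and 15.4 CPM to 0.712 and 0.215 CPM, a log2 fold change of -4.96 ± 0.273 (adjusted p = 4.85e-14), or -6.02 without day 8 replicate 1.

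Notch receptors were called higher in 3 of 4 cases, 2 of them at least 2-fold. NOTCH3 stood at 77.7 and 79.1 CPM at day 0 and 438 and 458 CPM at day 8 and rose by a log2 fold change of 2.51 ± 0.0522 (adjusted p = 1.93e-22). NOTCH2 rose from 138 and 169.5 CPM to 502 and 499 CPM, a log2 fold change of 1.70 ± 0.0748 (adjusted p = 5.52e-16), NOTCH1 rose by 0.85 ± 0.0512, and NOTCH4 fell by 0.62. Of 12 Frizzled and LRP5 or LRP6 receptors, the WNT receptors, 7 were called higher and 3 lower, 6 and 1 of them at least 2-fold, with FZD5 at a log2 fold change of 2.26 ± 0.201, FZD6 at 1.53 ± 0.0874, LRP6 at 1.23 ± 0.122 and FZD8 at -2.00 ± 0.0984. Among TGF-beta superfamily receptors, ENG fell most, with a log2 fold change of -3.26 ± 0.0868, and TGFBR2 changed by only 0.14 ± 0.0463.

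Of 22 pattern recognition and scavenger receptors tested, 10 were called lower and 9 higher, 8 and 6 of them at least 2-fold, with the intracellular sensors NOD1 and NOD2 at a log2 fold change of 1.21 ± 0.143 and 2.24 ± 0.219. CD14, a co-receptor for bacterial lipopolysaccharide, fell from 129 and 129 CPM to 8.26 and 8.39 CPM, a log2 fold change of -3.95 ± 0.0814 (adjusted p = 1.66e-22). TLR4, which signals with it, fell, with a log2 fold change of -4.48 ± 0.341. TNFRSF1B, the second TNF receptor, fell, with a log2 fold change of -3.48 ± 0.149, and 6 of 16 TNF receptor family members were at least 2-fold lower against 3 higher. TNFRSF21, a death-domain member, was among those higher, at a log2 fold change of 1.57 ± 0.0504. Leukocyte markers summed to 134 to 135 CPM at day 0, nearly all of it CD14, and to 10.1 to 10.4 CPM at day 8, and the defining leukocyte genes PTPRC and AIF1 had 0 counts in the 4 libraries. GPR84, a receptor for medium-chain fatty acids, had 7.87 and 6.31 CPM at day 0 and 0 and 0 CPM at day 8, a level at least 105-fold lower (adjusted p = 9.14e-11). ACKR4, a chemokine scavenger whose gene overlaps ACAD11, fell, with a log2 fold change of -4.63 ± 0.343, and ADGRG2 at -3.69 ± 0.328. LRP1, a scavenger receptor, fell from 1463 and 1536 CPM to 703 and 731 CPM, a log2 fold change of -1.06 ± 0.0719 (adjusted p = 2.61e-12). That fall did not pass a test against a change of 2-fold (adjusted p = 0.27). Other G protein-coupled receptors were at least 2-fold higher in 43 and lower in 29 of 114 cases.

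Several peptides and cytokines that were abundant at day 0 were the ligands with the largest falls. VGF, a neurotrophin-induced peptide precursor, stood at 716 and 617 CPM at day 0 and 0.665 and 0.56 CPM at day 8. It fell, with a log2 fold change of -10.08 ± 0.127 (adjusted p = 5.16e-26), the largest fitted fall in the class, and on the TPM scale from rank 3 to rank 169 among ligands. IL11, a cytokine of the IL6 family, fell from 159 and 144 CPM to 0.57 and 0.344 CPM, a log2 fold change of -8.37 ± 0.149 (adjusted p = 9.87e-24). LIF, of the same family, fell from 274 and 286 CPM to 3.04 and 2.32 CPM, a log2 fold change of -6.71 ± 0.0969 (adjusted p = 3.65e-25). IL6 and CLCF1 fell too, with log2 fold changes of -5.56 ± 0.102 and -3.88 ± 0.101. CTF1, of the same family, was not called (adjusted p = 0.285). CSF3, the granulocyte growth factor, fell, with a log2 fold change of -6.84 ± 0.365, or -8.24 without day 8 replicate 2, and CSF1 at -2.14 ± 0.0524. The chemokines CXCL8 and CCL20 fell, with a log2 fold change of -5.18 ± 0.0908 and -5.52 ± 0.171, but CXCL14 and CXCL12 rose by 2.23 ± 0.0696 and 1.91 ± 0.0706. GAL, the galanin precursor, had 6.89 and 6.82 CPM at day 0 and 0 and 0.043 CPM at day 8, a ratio of 304 in counts (95% interval 54.1 to 12029.7), and TAC1, the substance P precursor, had 18.3 and 16.5 CPM at day 0 and 0.0475 and 0.0861 CPM at day 8, a ratio of 257 in counts (95% interval 87.6 to 1249). SEMA7A, a membrane-anchored semaphorin, fell from 238 and 231 CPM to 3.75 and 3.96 CPM, a log2 fold change of -5.92 ± 0.0981 (adjusted p = 2.98e-24).

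WNT ligands and R-spondins, which amplify WNT signals, numbered 15 tested, of which 10 rose and 2 fell, 9 and 2 of them at least 2-fold, and their median log2 fold change was 1.71. WNT10A, needed for skin appendages in mice and humans, stood at 0.609 and 0.464 CPM at day 0 and 38.3 and 37.1 CPM at day 8 and rose by a log2 fold change of 6.12 ± 0.188 (adjusted p = 4.07e-19). WNT4, which relays progesterone signals in the mouse mammary gland, rose from 1.14 ± 0.371 CPM to 19.7 ± 0.201 CPM (SD, n = 2), a log2 fold change of 4.10 ± 0.26. RSPO1 rose from 1.92 and 1.62 CPM to 40.8 and 41.4 CPM, a log2 fold change of 4.53 ± 0.122 (adjusted p = 3.01e-20). RSPO2 had 0 and 0.0928 CPM at day 0 and 11.7 and 10.2 CPM at day 8, a ratio of 234 in counts (95% interval 64.5 to 1941). In contrast WNT5A, a noncanonical WNT of mesenchyme, fell from 607 and 627 CPM to 239.8 and 240.1 CPM, a log2 fold change of -1.36 ± 0.0459 (adjusted p = 2.6e-18). WNT5B fell, with a log2 fold change of -5.52 ± 0.191. Secreted WNT antagonists were divided as well. SFRP1 rose from 34.7 and 33.6 CPM to 198 and 200.1 CPM, a log2 fold change of 2.54 ± 0.0622 (adjusted p = 4.82e-21). SFRP2 rose by 5.52 ± 0.256, or 6.24 without day 0 replicate 1, whereas WIF1 fell, with a log2 fold change of -3.84 ± 0.154.

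The 3 TGF-beta isoforms moved in opposite directions. TGFB1 fell from 211 ± 22.8 CPM to 36.8 ± 0.575 CPM (SD, n = 2), a log2 fold change of -2.52 ± 0.0709 (adjusted p = 7.53e-20). TGFB3 stood at 10.4 and 12.6 CPM at day 0 and 222 and 223 CPM at day 8 and rose by a log2 fold change of 4.27 ± 0.0756 (adjusted p = 8.8e-24). TGFB2 rose from 1.08 and 1.72 CPM to 26.1 and 28.8 CPM, a log2 fold change of 4.29 ± 0.151 (adjusted p = 6.73e-18). On the TPM scale TGFB1 went from 125 TPM to 23.2 TPM and TGFB3 from 5.37 TPM to 109.9 TPM, so TGFB3 was the more abundant transcript at day 8 and TGFB1 at day 0. Of the rest of the superfamily, GDF10 fell from 85.4 and 81.3 CPM to 0.142 and 0.387 CPM, a log2 fold change of -8.24 ± 0.221 (adjusted p = 2.97e-20), or -9.14 without day 8 replicate 2, while INHBA, the activin A subunit, fell, with a log2 fold change of -2.36 ± 0.116 and its antagonist FST (follistatin) at -3.55 ± 0.0617. BMP7 rose by 1.08 ± 0.0845 and BMP4 fell, with a log2 fold change of -1.54 ± 0.0996.

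VEGFA, the main angiogenic factor, fell from 396 and 425 CPM to 37.2 and 39.4 CPM, a log2 fold change of -3.42 ± 0.0605 (adjusted p = 8.8e-24). VEGFC fell, with a log2 fold change of -2.63 ± 0.0734. VEGFD rose by a log2 fold change of 4.81 ± 0.272 and PGF by 3.94 ± 0.366. FGF7, a factor made by mesenchyme for epithelium, fell from 140.2 ± 13.2 CPM to 3.42 ± 0.333 CPM (SD, n = 2), a log2 fold change of -5.36 ± 0.0987 (adjusted p = 1.86e-23). HGF, another such factor, fell, with a log2 fold change of -3.99 ± 0.208. IGF1 rose from 0.281 and 0.232 CPM to 8.79 and 8.7 CPM, a log2 fold change of 5.06 ± 0.249 (adjusted p = 5.47e-15). SEMA5A, a guidance semaphorin, rose from 40.9 and 45.9 CPM to 283 and 284 CPM, a log2 fold change of 2.71 ± 0.067 (adjusted p = 6.09e-21). NPPC, the precursor of C-type natriuretic peptide, had 0 and 0.0464 CPM at day 0 and 7.65 and 5.77 CPM at day 8, a ratio of 286 in counts (95% interval 50.9 to 11323). ADM, adrenomedullin, rose by a log2 fold change of 1.51 ± 0.0514, and ANGPTL4, an inhibitor of lipoprotein lipase and a PPAR target, rose by 2.80 ± 0.0808. PTN (pleiotrophin) had the highest TPM among ligands on both days, 675 and 706, and its change was not called (adjusted p = 0.695).

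**Figure D3:**
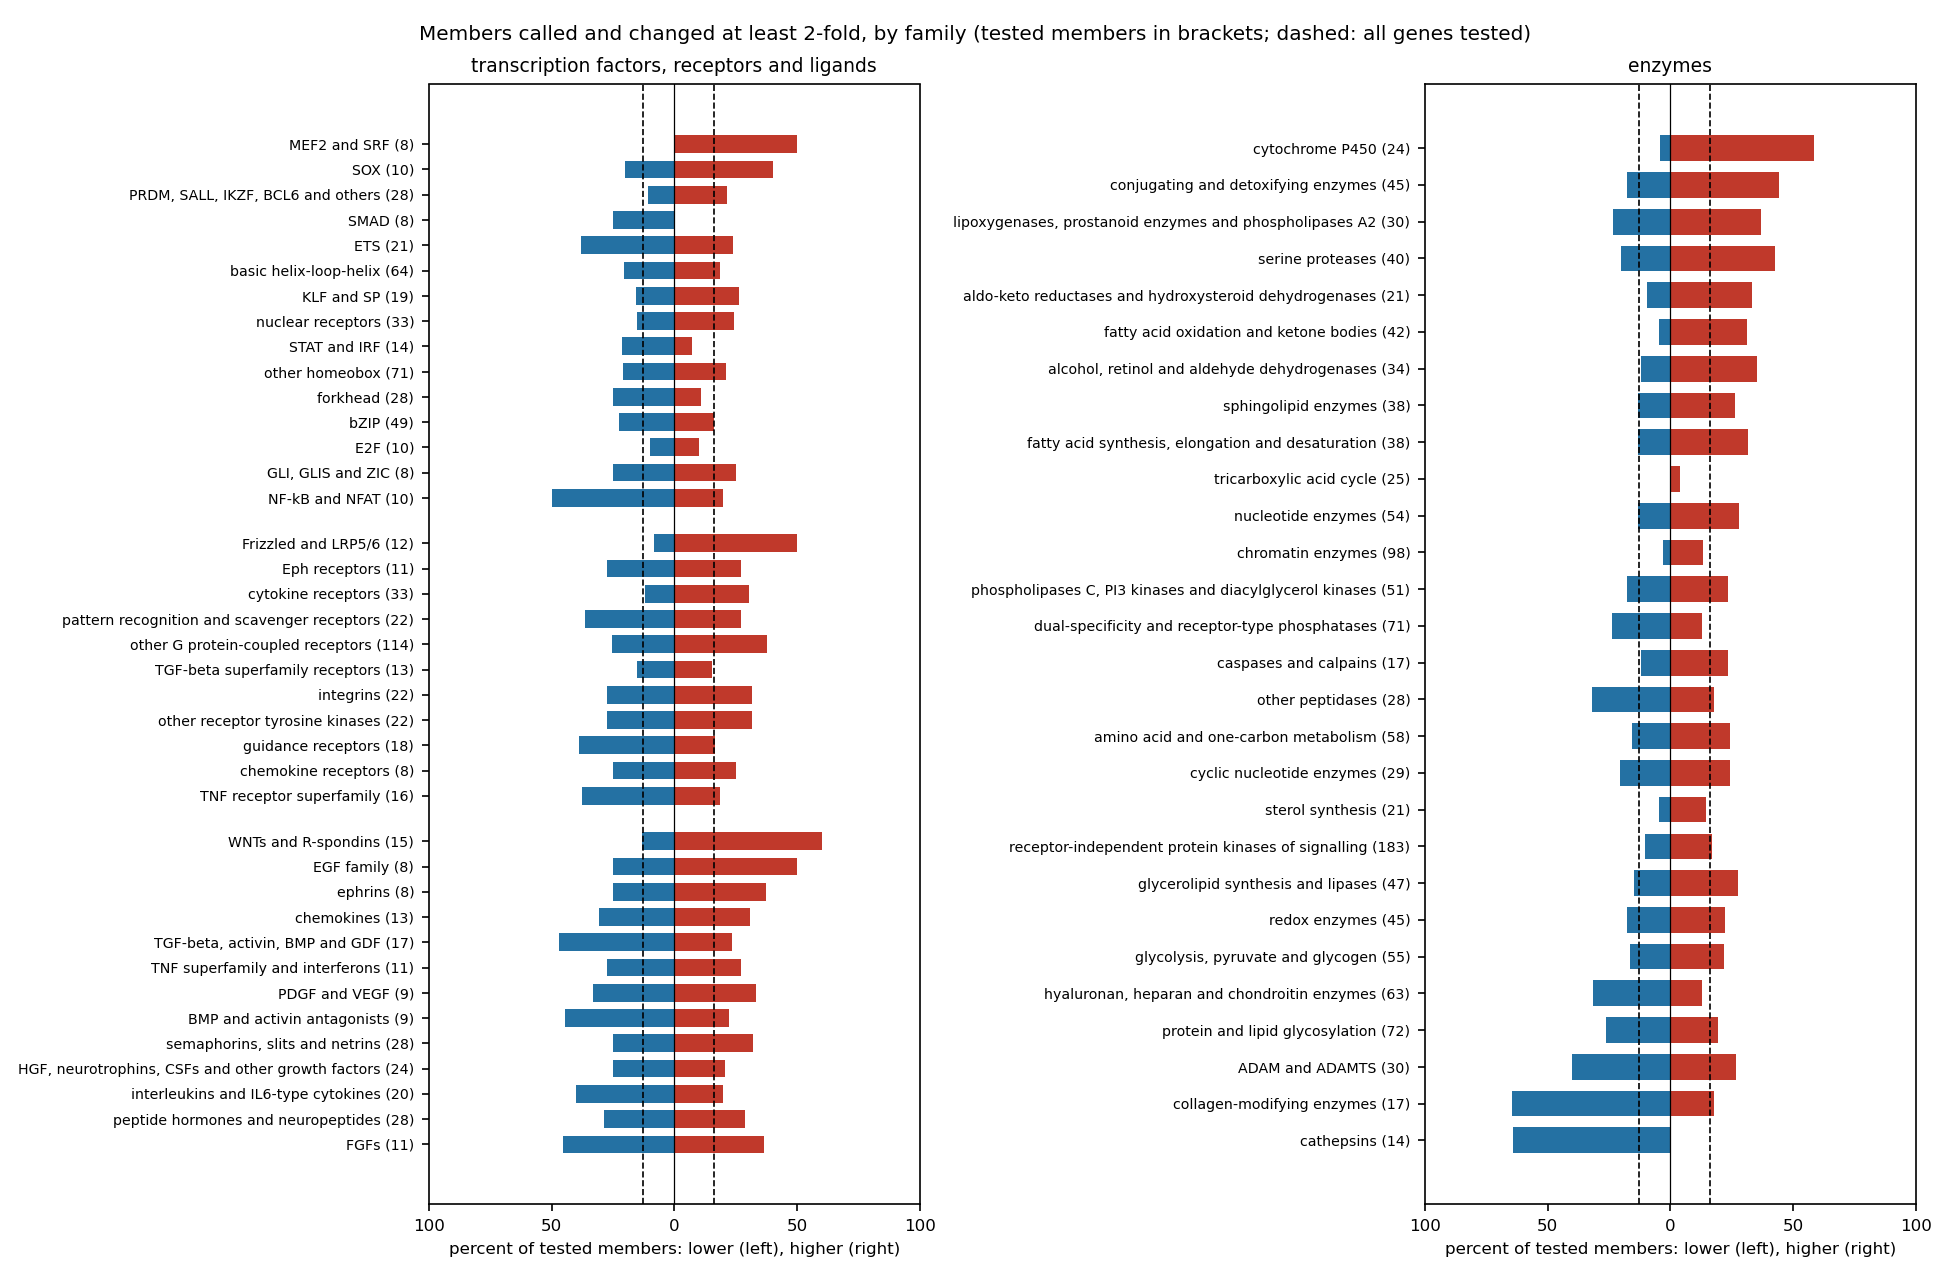
Percent of the tested members of each family with at least 8 tested (number in brackets) that were called and at least 2-fold higher (red, right) or lower (blue, left) at day 8, with families of a class ordered by their median. Dashed lines mark 16.1% and 12.7%, the values over all genes tested, and the longest bars are 64.7% lower for collagen-modifying enzymes, 64.3% lower for cathepsins, 60% higher for WNTs and R-spondins and 58.3% higher for cytochrome P450.

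Ligands and receptors were then read as 114 listed pairs, of which 86 had both partners tested. Both partners were at least 2-fold higher in 10 pairs and at least 2-fold lower in 6. The ligand was lower and the receptor higher in 12 pairs, and the reverse held in 7. Several pairs share a partner, and the pairs were not tested as such. Taken singly, 31.3% of tested ligands and 32.2% of tested receptors were at least 2-fold higher, and 30.4% and 24.9% lower. Whether the pair counts differ from those of unlinked partners was not tested. Some partners, such as KDR and GALR2, had means under 1 CPM on both days. FGF7 and FGF10 fell, with a log2 fold change of -5.36 ± 0.0987 and -2.15 ± 0.178 while their receptor FGFR2 rose by 2.98 ± 0.0766. IL6 fell while IL6R rose by 1.15 ± 0.129, although IL6ST, the shared signalling subunit, fell, with a log2 fold change of -1.05 ± 0.095. SEMA7A fell while its receptor PLXNC1 rose by a log2 fold change of 3.56 ± 0.393, from under 1 CPM. SEMA3C fell, with a log2 fold change of -1.38 ± 0.0964 and NRP1, a semaphorin and VEGF co-receptor, rose from 30.1 ± 2.92 CPM to 336 ± 3.27 CPM (SD, n = 2), a log2 fold change of 3.48 ± 0.0634 (adjusted p = 1.54e-23). Pairs that rose together included IGF1 with IGF1R, WNT10A with FZD5, WNT4 with FZD6, CXCL12 with CXCR4 at a log2 fold change of 1.49 ± 0.142, and APLN with APLNR at 1.54 ± 0.203 and 2.65 ± 0.22. Pairs that fell together included TNFSF12 with TNFRSF12A, at a log2 fold change of -2.04 ± 0.0978 and -1.94 ± 0.067, IL18 with IL18R1, PDGFB with PDGFRB, and WNT5A with its receptor ROR2, at -2.13 ± 0.14. EGFR ligands were mixed, with TGFA at a log2 fold change of -1.16 ± 0.0596 and EREG at -1.14 ± 0.146 against AREG at 1.24 ± 0.102 and BTC at 1.40 ± 0.259. SLIT2 and SLIT3 rose by 2.22 ± 0.109 and 3.81 ± 0.363 and ROBO1, their receptor, fell, with a log2 fold change of -1.14 ± 0.0921.

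**Figure D4:**
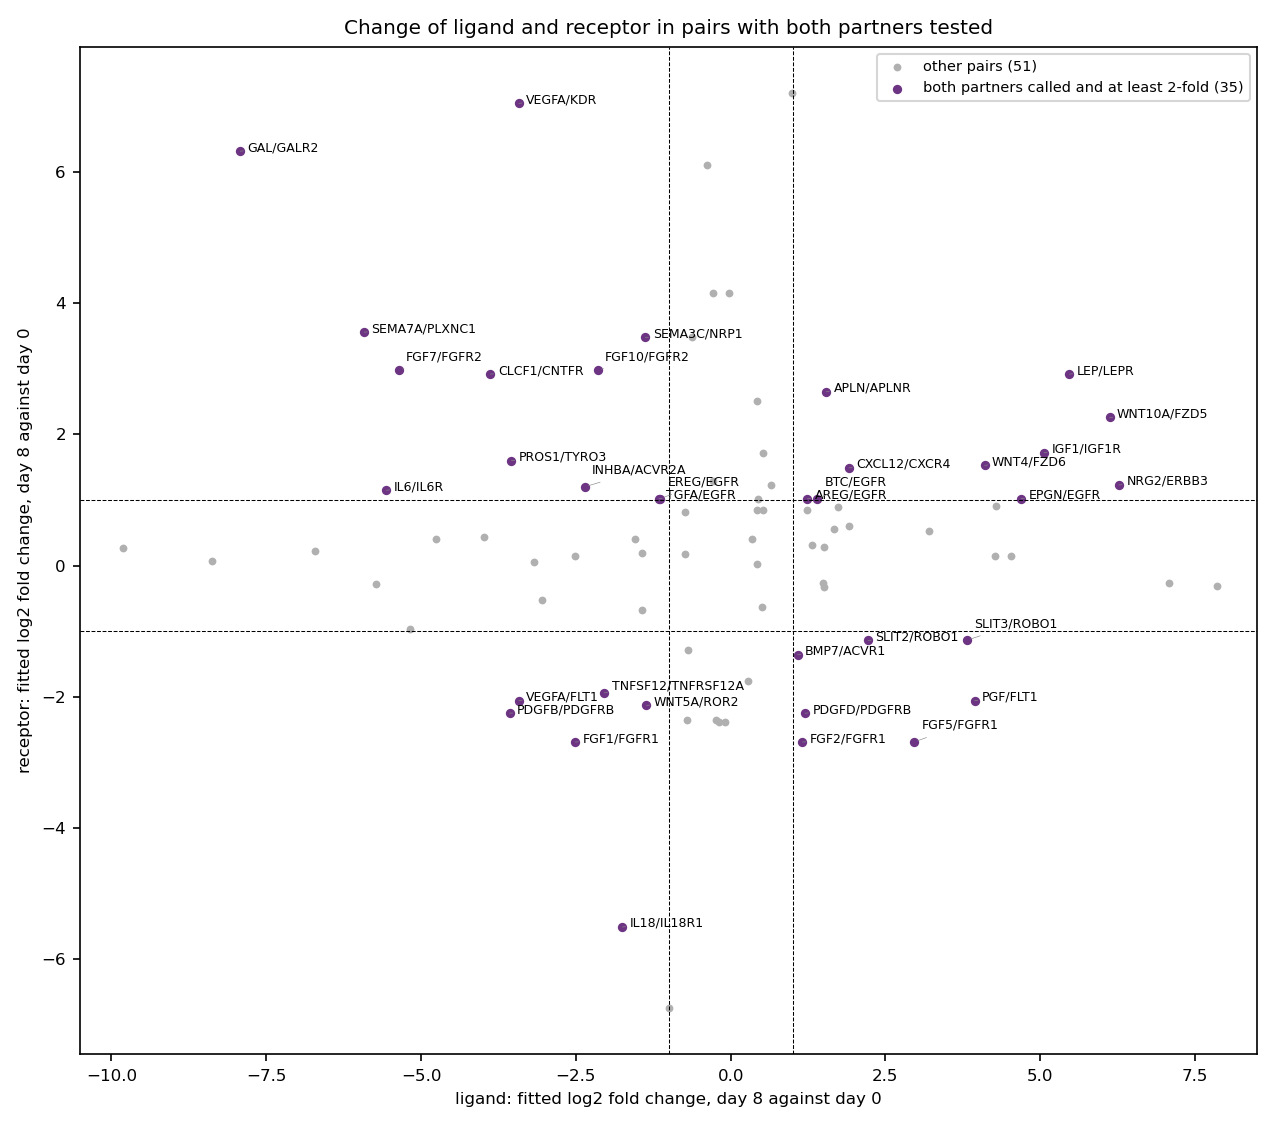
Fitted log2 fold change of the ligand (horizontal axis) and of the receptor (vertical axis) for the 86 pairs with both partners tested, with dashed lines at a 2-fold change. Purple points are pairs with both partners called and at least 2-fold changed, and the positions of genes with at most 3 counts on 1 day, among them GAL, GALR2, KDR, LEP, NPPC and CSF2, depend on the prior count.

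Among the enzymes, the largest rises included enzymes of detoxification. LOC102174170, annotated as a glutathione S-transferase A1, had 1 count in the day 0 libraries together and stood at 0.0469 and 0 CPM at day 0 and 385 and 388 CPM at day 8, a ratio of 16576 in counts (95% interval 2975 to 654745). Per length it was the fifth most abundant enzyme at day 8, at 1072 TPM. LOC102190288, annotated as a UDP-glucuronosyltransferase 1-1, rose from 0.187 and 0.371 CPM to 103 and 104 CPM, a log2 fold change of 8.51 ± 0.185 (adjusted p = 4.82e-22), or 9.09 without day 0 replicate 2. LOC102173111, a flavin-containing monooxygenase, had 0.0937 and 0 CPM at day 0 and 15.6 and 17.8 CPM at day 8, a ratio of 359 in counts (95% interval 99 to 2969). GSTM3 rose from 16.6 ± 2 CPM to 368 ± 7.73 CPM (SD, n = 2), a log2 fold change of 4.47 ± 0.0696, and the epoxide hydrolase EPHX1 by 3.04 ± 0.0917. Of 45 conjugating enzymes, 26 were called higher and 11 lower, 20 and 8 of them at least 2-fold, and among those lower was NQO2, a quinone reductase, at a log2 fold change of -3.63 ± 0.0736. Of 24 cytochromes P450, which oxidise steroids, retinoids and foreign compounds, 14 were at least 2-fold higher and 1 lower, and the median log2 fold change was 1.17. LOC102184252, annotated as CYP1B1, rose by a log2 fold change of 2.84 ± 0.0943 and LOC102187233, annotated as the retinoic acid hydroxylase CYP26B1, rose by 2.18 ± 0.0704. Some members of these families are close copies of others, and how reads were split between such copies is not given, so values of single members are uncertain.

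HSD11B2, which inactivates cortisol, had 0.0937 and 0 CPM at day 0 and 9.12 and 7.1 CPM at day 8, a ratio of 173 in counts (95% interval 47.5 to 1433). HSD11B1, which regenerates cortisol, fell from 38.5 ± 4.43 CPM to 11.3 ± 0.398 CPM (SD, n = 2), a log2 fold change of -1.77 ± 0.0905. In retinoid metabolism, DHRS3 and RDH12, reductases that return retinal to retinol, rose by 3.08 ± 0.0905 and 5.56 ± 0.392, and RDH10, which makes retinal, fell, with a log2 fold change of -1.52 ± 0.11. PTGS2, the inducible cyclooxygenase, fell from 98.7 and 116 CPM to 7.36 and 5.94 CPM, a log2 fold change of -4.02 ± 0.101 (adjusted p = 9.14e-21). PTGES, the prostaglandin E synthase, fell, with a log2 fold change of -2.76 ± 0.0862. TBXAS1, thromboxane synthase, had 6.14 and 6.36 CPM at day 0 and 0 and 0.129 CPM at day 8, a ratio of 92.2 in counts (95% interval 31.2 to 450.1). Lipoxygenases of the skin barrier, ALOX12B and ALOXE3, rose by a log2 fold change of 2.19 ± 0.485, or 2.95 without day 0 replicate 2, and a ratio of 13.6 in counts (95% interval 4.33 to 68.4).

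Of 14 cathepsins and related lysosomal peptidases, 12 were lower, 9 of them at least 2-fold, and 2 higher, and the median log2 fold change was -1.48. CTSB stood at 2052 and 1838 CPM at day 0 and 355 and 359.8 CPM at day 8 and fell, with a log2 fold change of -2.44 ± 0.0542 (adjusted p = 6.79e-22). CTSK, which cleaves collagen, fell from 1242 ± 16.7 CPM to 92.7 ± 2.53 CPM (SD, n = 2), a log2 fold change of -3.75 ± 0.0543. ADAM8 fell from 479.8 and 419.7 CPM to 18.8 and 21.5 CPM, a log2 fold change of -4.48 ± 0.0824 (adjusted p = 1.86e-23). The fibroblast protease FAP fell, with a log2 fold change of -3.89 ± 0.123. ADAMTS17 rose from 0.328 and 0.0464 CPM to 20.9 and 20.2 CPM, a log2 fold change of 6.74 ± 0.264 (adjusted p = 5.63e-17), or 8.63 without day 0 replicate 1. Among serine proteases the kallikreins KLK7 and KLK5, which cut the bonds between cells of the outer skin, rose. KLK7 had 0.0937 and 0 CPM at day 0 and 11.7 and 10.8 CPM at day 8, a ratio of 241 in counts (95% interval 66.3 to 1993), and KLK5 rose by a log2 fold change of 5.92 ± 0.573, or 10.04 without day 0 replicate 1. KLK12, KLK11 and KLK13 rose by a log2 fold change of 5.04 ± 0.163, 3.25 ± 0.197 and 3.52 ± 0.344, or 4.20 without day 0 replicate 2. PRSS23 stood at 70 and 74 CPM at day 0 and 1085 and 1084 CPM at day 8 and rose by a log2 fold change of 3.91 ± 0.0519 (adjusted p = 7.78e-26). TGM3, an epidermal transglutaminase, rose by a log2 fold change of 5.94 ± 0.223, or 6.53 without day 0 replicate 1, and CASP14, the caspase of the outer skin, rose by 6.58 ± 0.489, or 7.52 without day 0 replicate 2. Markers of differentiated epidermis rose in the same libraries, as given above, and their part in these values was not tested.

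Of 17 collagen-modifying enzymes, 14 fell and 3 rose, 11 and 3 of them at least 2-fold, and the median log2 fold change was -1.46. P4HA3, a subunit of prolyl hydroxylase, fell from 107 and 102 CPM to 3.85 and 3.1 CPM, a log2 fold change of -4.91 ± 0.105 (adjusted p = 3.61e-22). PLOD3, a lysyl hydroxylase, fell, with a log2 fold change of -2.67 ± 0.0725 and LOXL1, a cross-linking oxidase, fell, with a log2 fold change of -2.38 ± 0.0631, whereas LOX, its relative, rose by 1.36 ± 0.0653. Of the hyaluronan synthases, HAS2 fell, with a log2 fold change of -3.52 ± 0.177 and HAS3 rose from 106 ± 1.27 CPM to 584 ± 7.62 CPM (SD, n = 2), a log2 fold change of 2.47 ± 0.0524. The heparan sulfatase SULF1 fell, with a log2 fold change of -3.09 ± 0.0774 and its relative SULF2 rose by 2.31 ± 0.0544. Over 63 glycosaminoglycan enzymes 35 were called lower and 13 higher, 20 and 8 of them at least 2-fold. Fibroblast markers were lower in the same libraries, as given above, and their part in these falls was not tested.

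PKM, pyruvate kinase, stood at 5548 and 4883 CPM at day 0 and 1299.5 and 1269 CPM at day 8 and fell, with a log2 fold change of -2.02 ± 0.0549 (adjusted p = 3.63e-20). ENO1, enolase, fell from 2732 and 2473 CPM to 1014 and 1031 CPM, a log2 fold change of -1.35 ± 0.0475 (adjusted p = 6.47e-18). Of 55 enzymes of glycolysis, pyruvate and glycogen, 29 were called lower and 15 higher. At least 2-fold the order was the other way, with 9 lower and 12 higher. PDK4, pyruvate dehydrogenase kinase 4, had the largest rise of them. It had 0.328 and 0.278 CPM at day 0 and 173 and 159 CPM at day 8, a log2 fold change of 9.07 ± 0.153 (adjusted p = 4.12e-24). FBP1, an enzyme of gluconeogenesis, rose by a log2 fold change of 4.19 ± 0.17 and HK2 by 1.34 ± 0.0949. Tricarboxylic acid cycle enzymes, listed here with pyruvate dehydrogenase, numbered 25 tested, of which 15 rose and 1 fell. Only PDHA1, a pyruvate dehydrogenase subunit, passed 2-fold, at a log2 fold change of 1.28, and the median was 0.20. Of 42 fatty acid oxidation and ketone body genes, 24 were called higher and 9 lower, 13 and 2 of them at least 2-fold. CPT1A, which admits fatty acids to mitochondria, rose from 113 ± 6.95 CPM to 357 ± 0.856 CPM (SD, n = 2), a log2 fold change of 1.67 ± 0.0511, and CROT, a peroxisomal carnitine transferase, rose by 4.29 ± 0.0913. The desaturases FADS1 and FADS2 fell, with a log2 fold change of -2.58 ± 0.0593 and -3.42 ± 0.0828. FASN, which makes fatty acids for milk fat among other lipids, had 291 and 275 CPM at day 0 and 258 and 255 CPM at day 8 and was not called (adjusted p = 0.0687).

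GPT2, mitochondrial alanine transaminase, stood at 28.1 and 32 CPM at day 0 and 634 and 631 CPM at day 8 and rose by a log2 fold change of 4.40 ± 0.0622 (adjusted p = 2.65e-25). The serine synthesis enzymes PHGDH, PSAT1 and PSPH rose by 1.49 ± 0.0557, 2.73 ± 0.0521 and 1.62 ± 0.0565, and GLDC, which breaks down glycine, fell, with a log2 fold change of -4.81 ± 0.336. Among sphingolipid enzymes, CERS3 and CERS4, ceramide synthases, rose by 2.69 ± 0.19 and 2.91 ± 0.241 and SMPD1, acid sphingomyelinase, fell, with a log2 fold change of -1.82 ± 0.0672. DGAT2, which completes triglyceride synthesis, rose by a log2 fold change of 4.90 ± 0.426. ADCY5, an adenylate cyclase, had 0.0469 and 0.0464 CPM at day 0 and 39.1 and 39 CPM at day 8, a ratio of 838 in counts (95% interval 232 to 6927), and PDE5A, which breaks down cyclic GMP, rose by a log2 fold change of 2.05 ± 0.0604. MYLK, the kinase of smooth muscle contraction, rose from 14.5 and 17.6 CPM to 1424 and 1382 CPM, a log2 fold change of 6.45 ± 0.071 (adjusted p = 9.87e-27). NT5E, the enzyme CD73 that marks mesenchymal stromal cells, fell from 542 and 589 CPM to 14.3 and 13 CPM, a log2 fold change of -5.37 ± 0.0689 (adjusted p = 5.45e-26). PTPRN fell, with a log2 fold change of -5.93 ± 0.204 and GGT5 at -4.65 ± 0.276. Redox enzymes were split, with GPX2, the glutathione peroxidase of epithelia, at a log2 fold change of 5.28 ± 0.206 and DUOX1 at 2.32 ± 0.078 against HMOX1 at -3.41 ± 0.0947 and SOD2 at -2.11 ± 0.0528.

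**Figure D5:**
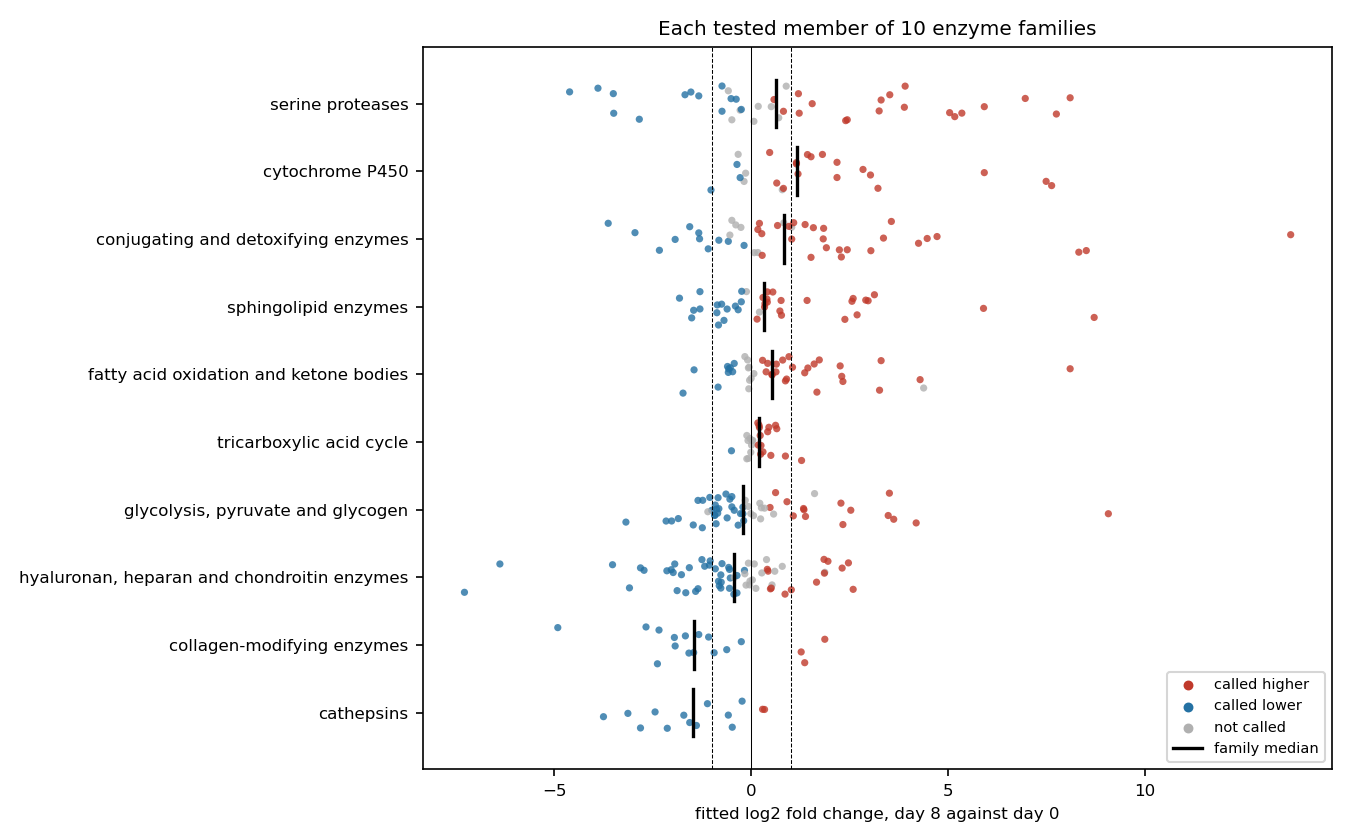
Fitted log2 fold change of each tested member of 10 enzyme families, 1 point a gene, red where called higher, blue where called lower and grey where not called, with the family median as a black bar and dashed lines at a 2-fold change. The medians run from -1.48 for cathepsins and -1.46 for collagen-modifying enzymes to 1.17 for cytochrome P450, and fitted values of genes with 0 counts on 1 day depend on the prior count.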

How the data were processed

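The authors' deposited table holds estimated counts per gene for 14 libraries (2 a day on 7 days), with gene names, lengths and means per day, per the file headers. The submitters' processing notes name FastQC 0.10.1, HTSeq and DESeq2 1.16.1, and the labels name rRNA depletion and a TruSeq library. No source used here names the aligner, genome build or strand setting. In the table, 90% of the values are whole numbers, and all were rounded for the tests. Library totals ran from 20515126 to 24746010, so that 3 counts, the floor used for genes at 0, equal 0.129 to 0.142 CPM in the 4 libraries compared. Intervals and floors cover counting error only.

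Genes were filtered with edgeR 4.0.16 (R 4.3.3), scaled by TMM and tested with the quasi-likelihood test, day 8 against day 0, in a fit of all 14 libraries with 1 term a day and 7 residual degrees of freedom. P-values were adjusted by Benjamini-Hochberg over the 15712 genes tested, with an adjusted p under 0.05 as the limit for a call. CPM are on TMM-scaled library sizes. TPM, computed from the counts and deposited lengths, were used for levels between genes. A gene with 1 to 3 counts on a day is given by its count ratio with a 95% interval, and a gene with 0 by a bound. The fit was tested on simulated data.

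Classes and 87 families were assembled from gene names and descriptions. In each class, the rule for named genes takes the 8 largest rises and the 8 largest falls with at least 5 CPM in both libraries of the higher day, plus the 3 largest CPM differences in each direction, and it also takes the most changed members of each family and the listed pairs and markers. Other genes were named after their values were seen, and members and lists were chosen with earlier results of these data known. Alternatives were DESeq2 1.42.0, its size factors, no filter and a stricter one, days 0 and 8 alone, the replicate block, a test against 2-fold and leaving out each library. A few genes that the rule takes are not reported here.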

Additional observations from a re-analysis of the deposited data

How the results depend on the processing

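The 86 named genes were chosen as large called changes from the same libraries, so most were likely to keep their calls. Of their 946 values under 11 alternatives, 945 kept their direction and their side of the threshold. The exception was LRP1, with a log2 fold change of -1.06 and an adjusted p of 0.27 in edgeR's test against a 2-fold change. That test called 1803 genes higher and 1443 lower, to be set beside the 2530 and 2000 called and past 2-fold in the report. Under it and the other alternatives the 2-fold counts of all genes and of the 4 classes stayed within 1.5 times of those reported, as did the counts of calls of any size under the alternatives that give them. Without 1 of the 4 libraries, 5081 to 5624 genes were called higher and 4953 to 5130 lower, with 2332 to 2631 and 1900 to 1972 of them past 2-fold. The fold of 19 of the 86 named genes moved by over 1.5 times without 1 library, and these have few counts on their lower day.

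Titles number the libraries 1 and 2 on each day. Over 21 pairs of days the deviations of same-numbered libraries correlated between -0.167 and 0.0863, and at -0.0179 for days 0 and 8. No strong shared effect of the numbers was seen, but such correlations cannot show whether libraries were paired in preparation. With the replicate block, 5592 genes were called higher and 5431 lower, 2518 and 1990 of them past 2-fold.

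Levels under the floor of 3 counts cannot be ranked, and 37 class members had 0 counts on 1 day. Setting these at their bounds moved no class or family median by more than 0.01.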

Other observations

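Marker lists of other cell types were low in the 4 libraries, and their part in the results was not tested. Of 8 adipocyte markers, 4 were called higher and 1 lower, and their sum rose from 11.8 to 13.4 CPM to 68.6 to 69 CPM. Most of that sum is CEBPA, described above, and PLIN4, a lipid droplet protein, which had 0 and 0 CPM at day 0 and 14.5 and 12.4 CPM at day 8. CIDEC, another lipid droplet protein, fell from 7.26 and 5.61 CPM to 0.237 and 0.301 CPM, and the fat cell hormone ADIPOQ stayed under 1 CPM. Of the muscle markers, ACTC1, cardiac actin, had 0.281 and 0 CPM at day 0 and 17.1 and 19.2 CPM at day 8, while the muscle factors MYOD1, MYOG and MYF5 had 0 counts. Endothelial markers summed to 30.1 to 31.3 CPM at day 0 and 4.56 to 6.28 CPM at day 8, mainly EGFL7, and CDH5, which defines these cells, had 0 counts. Neural or Schwann cell markers summed to 131 to 133 CPM at day 0 and 17.7 to 18.6 CPM at day 8, nearly all of it STMN2 and S100B. STMN2, a tubulin-binding protein of neurons, fell from 74.3 and 73.5 CPM to 2.66 and 1.89 CPM, and the neuronal genes ELAVL4 and GAP43 had 0 counts. Melanocyte markers summed to 14.8 to 15.4 CPM at day 0 and 15.7 to 16.1 CPM at day 8, or to 4.78 to 5.81 CPM and 3.18 to 3.46 CPM without MITF, and TYR, DCT and MLANA had 0 counts.

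Of the 86 named genes, 82 were found on placed autosomes of the RefSeq table and 15 of these overlap another gene there, so that reads of those genes may be shared.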
